A study of Homo sapiens with 6 samples.

Results

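TBK1 and its relative IKBKE, the adaptor proteins TANK, AZI2 and TBKBP1, and the autophagy receptors OPTN, CALCOCO2, TAX1BP1 and SQSTM1 were followed in samples labelled as a breast cancer line and given a TBK1 inhibitor or vehicle. The members were the probes that the platform annotation assigns to these 9 genes, 13 of the 47321 probes on the array. TANK had 4 probes, TAX1BP1 had 2, and each of the other genes had 1. The arrays, Illumina HumanHT-12 V4.0 beadchips, read each transcript with bead-bound oligonucleotide probes. All 6 samples were labelled as HCC1954, a human HER2-positive breast carcinoma line, with no genetic change stated for any group. Vehicle only was given to 3 samples and the small molecule TBK1 inhibitor II to 3 samples, each for 3 days, and neither the dose nor the vehicle is given in the sources used here. The series title names TBK1 as a candidate target in HER2-positive breast cancer, and the comparison asked how RNA levels respond to its inhibition.

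TBK1 is a serine/threonine kinase of innate immune signalling, and IKBKE encodes its close relative, also called IKK epsilon. TANK, AZI2 (NAP1) and TBKBP1 (SINTBAD) are scaffolds that bind the kinases through a related coiled-coil region and bring them to different upstream receptors. OPTN, CALCOCO2 (NDP52), TAX1BP1 and SQSTM1 (p62) bind ubiquitinated cargo and the ATG8 proteins of autophagosomes, and TBK1 phosphorylates several of them. A kinase inhibitor acts on the enzyme, and a transcript level does not measure enzyme activity.

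Array medians of signal intensity were 98.5 to 138.1 in the vehicle samples and 110.7 to 130.7 in the inhibitor samples. Vehicle replicate 1 had the dimmest array, with 18325 probes detected, against 19676 to 20741 on the other arrays. A probe counts as detected on an array when its deposited detection p-value is under 0.05. The cell line label was poorly borne out by marker genes. Of the 16 breast luminal epithelial markers with a probe, 5 were detected on every array, namely KRT8, KRT18, EPCAM, CDH1 and ERBB2. Detection does not make them bright. On the brightest probe of each, the median signal intensities over the arrays were 172.25, 199.5, 194.25, 164.7 and 405.3, in that order. The luminal markers KRT19, KRT7, CLDN3, CLDN7, ESR1 and GRB7 were detected on 0 arrays. For fibroblast markers 3 of 7 were detected on all 6 arrays, and for basal epithelial markers 1 of 5. Of 7 leukocyte and endothelial markers, 6 were detected on 0 arrays and CD14 on 5. For 2 marker lists of other cell types the summed levels did not overlap between the groups, which was not tested for the sums. The summed normalized level of the fibroblast markers was 989 to 1069 with vehicle and 1235 to 1282 with the inhibitor, and that of the leukocyte and endothelial markers 281 to 293 and 320 to 354. The latter sum covers 12 probes, of which only 1, that of CD14, was detected often enough to be tested. It is therefore not separate from the CD14 difference. The luminal sums, 1368 to 1406 and 1239 to 1434, and the basal sums, 328 to 375 and 340 to 380, overlapped. On single probes DCN, a fibroblast proteoglycan, rose by 1.26 (log2; adjusted p = 0.0212 by limma), and CD14, a myeloid receptor, by 1.03 (adjusted p = 0.0474), both detected on 2 of 3 vehicle arrays. The receptor gene ERBB3 was at least 1.07-fold higher on a probe not detected on any vehicle array (adjusted p = 0.0391), while its other tested probe did not pass (0.60, adjusted p = 0.197). The former probe entered the test only through the 3 inhibitor arrays, where it is high, so its adjusted p is not separate support. DCN passed in 11 of 15 alternative settings, CD14 in 5 of 15 and the former ERBB3 probe in 3 of 11. That ERBB3 probe dropped out of the test whenever an inhibitor array was left out. Of the 14 tested luminal probes, 7 had a log2 difference above 0 and 13 were not called. Among those below 0 were the probes of KRT8 (-0.75) and ERBB2 (-0.34). Of the 4 tested fibroblast probes, all 4 were above 0 and 3 were not called. The part of these markers in the results was not tested. The luminal markers not detected, ESR1 aside, go against the label. Detection of the other 5 at such low signals, ERBB2 at 405.3 included, does little to bear it out. Each difference given is therefore one between samples labelled HCC1954. In bulk RNA, fewer cells of a type and less RNA per cell cannot be told apart.

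The sequences before the transcription starts of 5 members are shown because TBK1 is the labelled target and TANK, AZI2, OPTN and TBKBP1 were the genes with a probe whose groups did not overlap. Each is the 250 bases before an annotated start, from RefSeq on GRCh38.p14, written 5′ to 3′ on the gene's strand. Capitals mark matches to any of 5 motifs searched on both strands. The motifs were the NF-kB consensus, by its name, the interferon-stimulated response element (ISRE) consensus, by its name, the ETS-like CCGGAAGT, the E-box CACGTG and the antioxidant-response-like TGACNNNGC.
TBK1, chr12:64451870-64452119, plus strand: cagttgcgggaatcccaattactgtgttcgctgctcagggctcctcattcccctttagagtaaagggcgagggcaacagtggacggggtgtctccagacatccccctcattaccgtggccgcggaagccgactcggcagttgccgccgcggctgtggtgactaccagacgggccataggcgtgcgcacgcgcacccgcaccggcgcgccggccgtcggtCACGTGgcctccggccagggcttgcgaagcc
TANK, chr2:161160178-161160427, plus strand: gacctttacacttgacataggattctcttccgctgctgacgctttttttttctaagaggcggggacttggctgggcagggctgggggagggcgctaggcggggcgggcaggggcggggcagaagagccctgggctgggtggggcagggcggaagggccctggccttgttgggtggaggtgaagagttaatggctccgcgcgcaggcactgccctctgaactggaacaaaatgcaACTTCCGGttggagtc
AZI2, chr3:28348825-28349074, minus strand: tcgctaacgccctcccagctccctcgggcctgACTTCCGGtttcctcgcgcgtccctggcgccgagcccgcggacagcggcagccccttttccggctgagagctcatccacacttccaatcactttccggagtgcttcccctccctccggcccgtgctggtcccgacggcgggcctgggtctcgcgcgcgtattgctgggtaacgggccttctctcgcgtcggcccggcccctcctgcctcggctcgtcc
TBKBP1, chr17:47693813-47694062, plus strand: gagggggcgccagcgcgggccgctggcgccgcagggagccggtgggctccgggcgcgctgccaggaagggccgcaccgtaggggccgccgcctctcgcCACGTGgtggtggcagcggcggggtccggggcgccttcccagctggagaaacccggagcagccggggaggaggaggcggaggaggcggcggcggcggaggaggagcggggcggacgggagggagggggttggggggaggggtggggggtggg
OPTN, chr10:13099832-13100081, plus strand: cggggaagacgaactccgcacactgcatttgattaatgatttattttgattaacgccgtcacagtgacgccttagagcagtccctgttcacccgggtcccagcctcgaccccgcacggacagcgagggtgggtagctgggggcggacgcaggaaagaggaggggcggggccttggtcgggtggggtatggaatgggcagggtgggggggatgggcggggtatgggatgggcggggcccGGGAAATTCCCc

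The capitals in OPTN are a pair of overlapping NF-kB consensus matches, one on each strand, from base -12 to base -2 before that start. The consensus was present in 5.21% of all 35116 windows of this length, and among the 16 windows of the 9 members it was present only in the 2 of OPTN, which overlap and share it. The ETS-like word occurred in TANK, at its start inside the gene, and in AZI2, in both on the strand opposite to the gene, and in 3.42% of all windows. The other TANK window, at the first start of the gene, is not printed and held no match to any of the motifs. The E-box occurred in TBK1 and in all 3 windows of TBKBP1, 2 of which overlap and share it, and in 6.34% of all windows. The ISRE consensus was found in none of the 16 member windows (0.188% of all windows), and the antioxidant-response-like word only in CALCOCO2 (10.9% of all windows). A match is a word in these letters, not a bound site. The motifs were chosen after the member sequences were read.

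Of the 13 member probes, 11 were detected on at least 3 of the 6 arrays and entered the test, with at least 1 probe for every gene. With the inhibitor, 8 of the 11 had a higher mean level and 3 a lower one, against 51.1% higher among all probes tested. This count of directions was not tested. None of the 11 passed the test (0 of 11, limma with Benjamini-Hochberg adjustment, adjusted p between 0.0974 and 0.982). Over all 19958 probes tested, 4.13% passed at an adjusted p under 0.05, 2.59% higher and 1.54% lower. At an unadjusted p under 0.05 there were 3 member probes, of TANK, AZI2 and TBKBP1, or 27.3%, against 22.8% of all probes tested. The groups did not overlap for 4 member probes, or 36.4%, against 28.5% of all probes tested. Both shares lay near the background. The median log2 difference, inhibitor minus vehicle, was 0.23 over the 11 member probes and 0.01 over all probes tested.

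**Figure D1:**
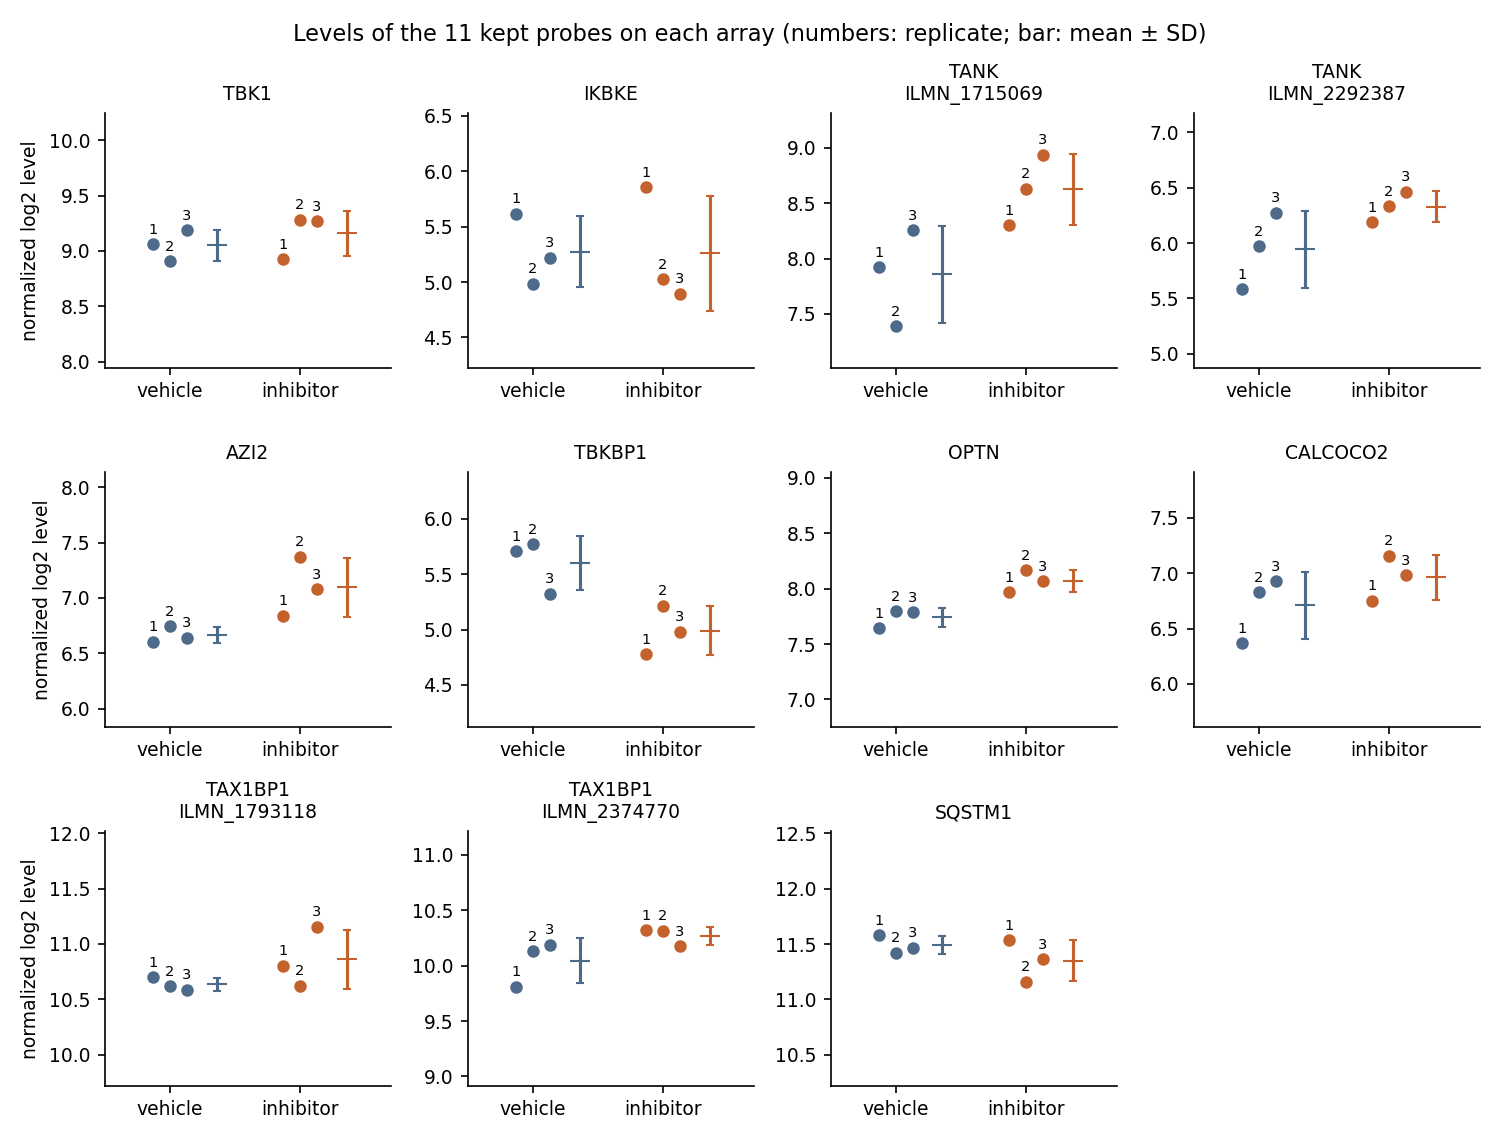
Normalized log2 level (y axis) of the 11 tested probes on each array, by group (x axis). Each point is 1 array with its replicate number, and the bar beside the points is the mean ± SD of 3 arrays. Every panel spans the same log2 range, so the separation of TANK probe ILMN_1715069, AZI2, OPTN and TBKBP1 and the overlap of the other probes can be compared.

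The 2 kinases did not differ detectably. TBK1 (probe ILMN_1739967, chromosome 12) had signal intensities of 455.9, 446.6 and 894.8 in vehicle replicates 1 to 3 and 519.5, 822 and 903.7 in inhibitor replicates 1 to 3, detected on all arrays. On the normalized log2 scale, used from here on for levels, these were 9.06, 8.91 and 9.19 with vehicle and 8.92, 9.28 and 9.27 with the inhibitor. Inhibitor replicate 1 lay among the vehicle samples, so the groups overlapped. The log2 difference of TBK1 was 0.11 ± 0.17 (limma's moderated SE, n = 3 per group, adjusted p = 0.763), and its 95% confidence interval ran from -0.28 to 0.49, or from 0.826-fold to 1.40-fold. A doubling or a halving of the TBK1 transcript thus lay outside the interval, while smaller changes lay within it. With 1 array left out the difference ran from 0.03, without vehicle replicate 2, to 0.22, without inhibitor replicate 1, and it was also moved over 1.5 times by leaving out vehicle replicate 3 (0.17) or inhibitor replicate 2 (0.04) or 3 (0.05).

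IKBKE (ILMN_1755024, chromosome 1) was close to background throughout. Its signal intensities were 113.8, 106.3 and 153.8 with vehicle and 140.8, 125.6 and 135.1 with the inhibitor, with detection on 2 of 3 arrays of each group. The arrays on which it was not detected were vehicle replicate 2 and inhibitor replicate 3, with detection p-values of 0.0558 and 0.0610. Levels were 5.62, 4.98 and 5.22 against 5.86, 5.02 and 4.90, and the arrays of each group spread over the range of the other. The log2 difference of IKBKE was -0.01 ± 0.27 (adjusted p = 0.982), with the widest error of the members and an interval from -0.62 to 0.59, or 0.649-fold to 1.51-fold.

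Among the scaffolds, TANK, which links the kinases to TRAF proteins, had the largest difference of the members. Its brighter probe, ILMN_1715069, gave signal intensities of 246.7, 206.3 and 513.8 with vehicle and 367.5, 565.4 and 750.8 with the inhibitor. The corresponding levels were 7.92, 7.39 and 8.26 against 8.30, 8.63 and 8.94. All 3 inhibitor samples lay above all 3 vehicle samples, by a gap of 0.05 between inhibitor replicate 1 and vehicle replicate 3. The log2 difference was 0.77 ± 0.25 (limma adjusted p = 0.108, interval 0.21 to 1.32), and it did not pass the test. It passed in 3 of 16 alternative settings, with median centring (1.03, adjusted p = 0.0197), an offset of 50 (0.68, adjusted p = 0.0491) and no background correction (0.58, adjusted p = 0.0498), and over all 16 the adjusted p ran from 0.0197 to 0.319.

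The other TANK probes read lower signals. ILMN_2292387, annotated to the same transcript as ILMN_1715069, had levels of 5.58, 5.97 and 6.27 with vehicle and 6.19, 6.33 and 6.46 with the inhibitor, which overlapped. Its log2 difference was 0.39 ± 0.20 (adjusted p = 0.286), in the same direction as the brighter probe. It was 0.21 without vehicle replicate 1, 0.16 without background correction and 0.13 in the deposited processed values. The remaining probes, ILMN_2372773 and ILMN_1793849, are annotated to another TANK transcript and were detected on 0 arrays. Their signal intensities were 94.7 to 134.7 and 84.5 to 119.6, so that transcript was not well above background in either group and no fold is given. Chromosome 2 holds the gene.

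**Figure D2:**
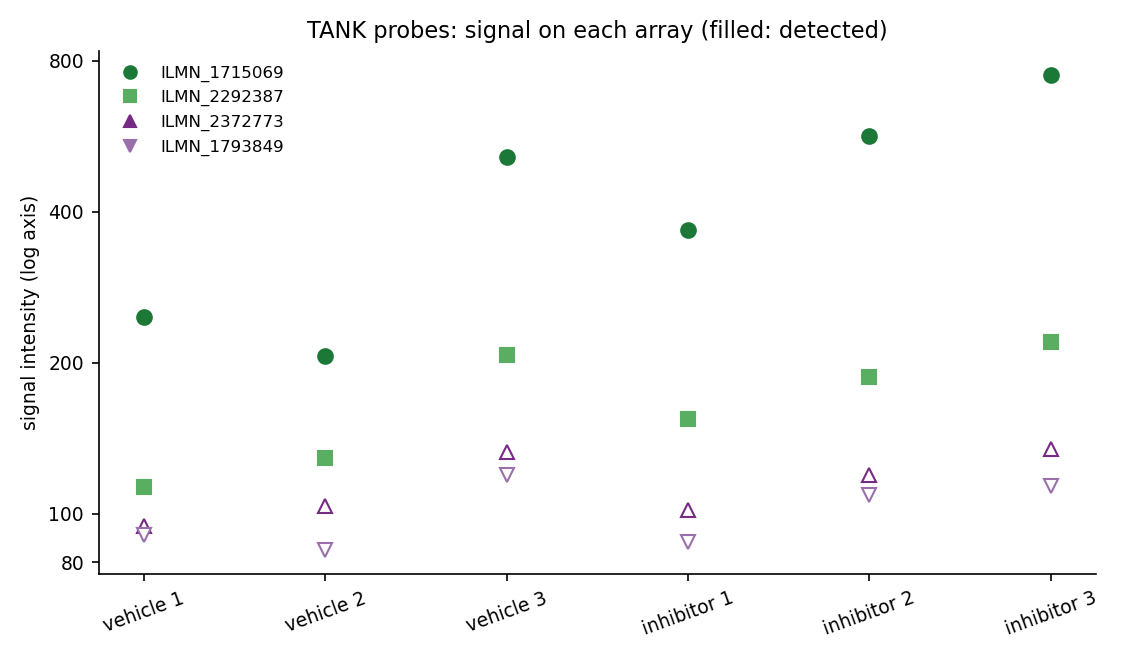
Signal intensity on a log axis (y axis) of the 4 TANK probes on the 6 arrays (x axis), before normalization. Filled symbols mark detection (p under 0.05) and open symbols its absence. The 2 probes annotated to one transcript are filled on all 6 arrays, and the 2 annotated to the other are open on all 6.

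AZI2, a scaffold of both kinases, was higher on every inhibitor array. Its probe (ILMN_1733680, chromosome 3) gave signal intensities of 144, 161.5 and 236.8 with vehicle and 191.7, 291 and 287.1 with the inhibitor. Levels were 6.60, 6.74 and 6.64 against 6.84, 7.37 and 7.08, with a tight vehicle group and a gap of 0.10 between the groups. The log2 difference was 0.43 ± 0.18 (adjusted p = 0.182, interval 0.04 to 0.83), which did not pass. The size of the AZI2 difference also rested on the processing, at 0.25 without background correction, 0.22 in the deposited processed values and 0.75 under median centring, a setting that put the middle of all probes at 0.21.

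TBKBP1 ran the other way. Its probe (ILMN_1808846, chromosome 17) was dim, with signal intensities of 115.7, 123.2 and 157.8 with vehicle and 110.4, 132.4 and 138.3 with the inhibitor. It was detected on all 3 vehicle arrays and on 2 inhibitor arrays, with a detection p-value of 0.118 on inhibitor replicate 1. After background correction and normalization the levels were 5.71, 5.77 and 5.33 against 4.78, 5.22 and 4.98, so all inhibitor samples lay below all vehicle samples. The log2 difference was -0.61 ± 0.19 (adjusted p = 0.0974, interval -1.03 to -0.19), the smallest adjusted p of the members. The size rested on the background correction, since it was -0.20 without one and -0.16 in the deposited processed values, and TBKBP1 passed in 0 of 15 alternative settings.

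**Figure D3:**
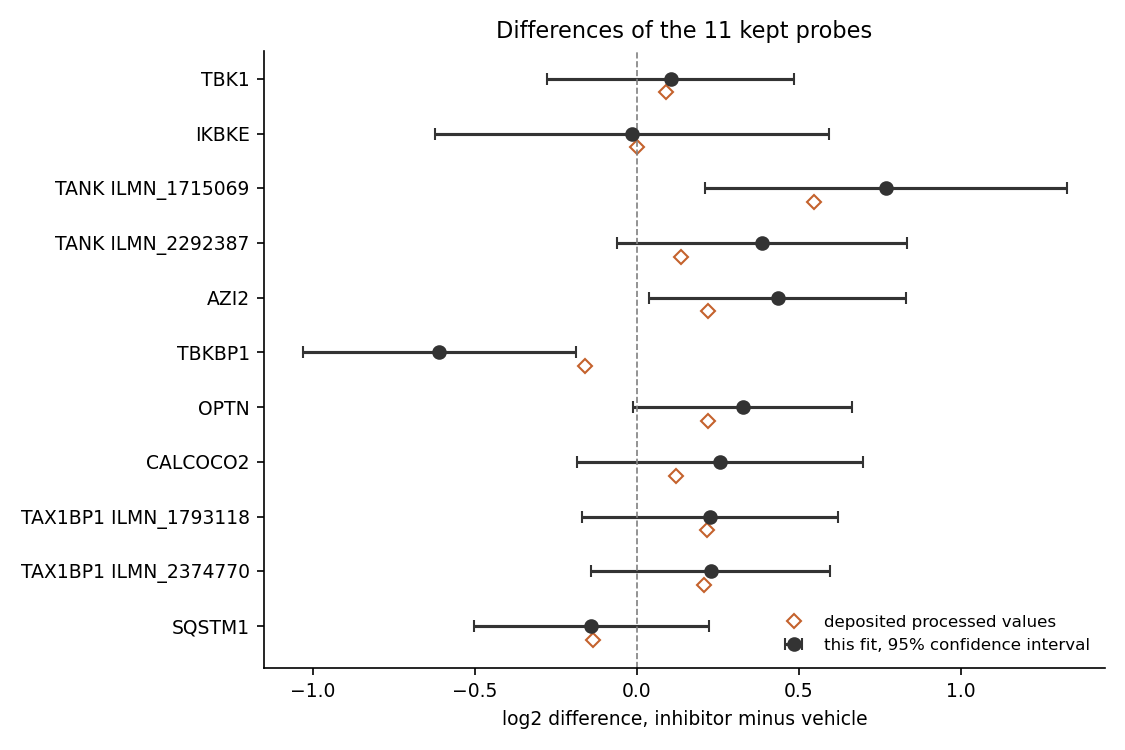
Log2 difference, inhibitor minus vehicle (x axis), of the 11 tested probes (y axis). Black points are the differences with their 95% confidence intervals, and open diamonds the differences in the deposited processed values. The intervals of TANK probe ILMN_1715069, AZI2 and TBKBP1 leave out 0 before adjustment, and the diamond of TBKBP1 lies closest to 0 relative to its point among these.

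Of the autophagy receptors, OPTN had the smallest error. OPTN brings ubiquitinated mitochondria and bacteria to autophagosomes, and TBK1 phosphorylates it beside its ATG8-binding motif. Its probe (ILMN_2381899, chromosome 10) gave signal intensities of 214.9, 249.3 and 398.7 with vehicle and 312.7, 430.8 and 463.6 with the inhibitor. Levels were 7.64, 7.80 and 7.79 against 7.97, 8.17 and 8.07, with a gap of 0.17 between the groups, the widest among the members. The log2 difference of OPTN was 0.33 ± 0.15 (adjusted p = 0.236, interval -0.01 to 0.66), and it was 0.61 with median centring. Its 2 promoter windows share the NF-kB consensus, found in 5.21% of all windows, and a link to the OPTN difference was not tested.

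CALCOCO2, a receptor for bacteria and mitochondria, overlapped between the groups (ILMN_1755504, chromosome 17). Its levels were 6.37, 6.83 and 6.93 with vehicle and 6.75, 7.16 and 6.98 with the inhibitor, and vehicle replicate 1 was the lowest array. The log2 difference of CALCOCO2 was 0.26 ± 0.20 (adjusted p = 0.479, interval -0.19 to 0.70). It was 0.09 without vehicle replicate 1, 0.16 without inhibitor replicate 2, 0.14 without background correction, 0.12 in the deposited processed values and 0.56 with median centring.

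TAX1BP1, a paralog of CALCOCO2 that also restrains inflammatory signalling, had 2 probes with nearly the same difference. On ILMN_1793118 levels were 10.70, 10.62 and 10.59 with vehicle and 10.80, 10.62 and 11.15 with the inhibitor, and inhibitor replicate 3 stood above the rest. ILMN_2374770 gave 9.81, 10.13 and 10.19 against 10.32, 10.32 and 10.18, and there vehicle replicate 1 stood below the rest. The log2 differences were 0.23 ± 0.18 (adjusted p = 0.485) and 0.23 ± 0.16 (adjusted p = 0.450), although different arrays set them apart. The difference was 0.08 on the former probe without inhibitor replicate 3 and 0.35 without inhibitor replicate 2, and 0.11 on the latter without vehicle replicate 1.

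SQSTM1, the receptor p62, which also binds KEAP1, was bright on every array, with signal intensities from 2282.7 to 4005.4 (ILMN_1662618, chromosome 5). Its levels were 11.58, 11.42 and 11.47 with vehicle and 11.53, 11.16 and 11.36 with the inhibitor, and the groups overlapped. It was the only autophagy receptor of the members with a lower mean level with the inhibitor. The log2 difference was -0.14 ± 0.16 (adjusted p = 0.655), and the interval, from -0.50 to 0.22, corresponds to 0.706-fold to 1.17-fold. It was -0.04 without inhibitor replicate 2, -0.23 without inhibitor replicate 1 and -0.0088 with median centring.

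The number of arrays bounds these statements. Among the probes that passed, the smallest log2 difference in either direction was 0.61 and the median size 0.91, and of the member probes only TANK ILMN_1715069 exceeded that smallest size. The errors of the members ran from 0.15 to 0.27 on the log2 scale. Of simulated probes with a log2 change of 1 among 19958, 39% were recovered, and of those with a change of 2, 85%. The simulation changed 200 probes, while 825 passed in these data, so its recovered shares may not hold here. With 3 arrays per group, no probe with a log2 difference under 0.61 in size passed. Smaller changes in the members are thus not excluded.

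**Figure D4:**
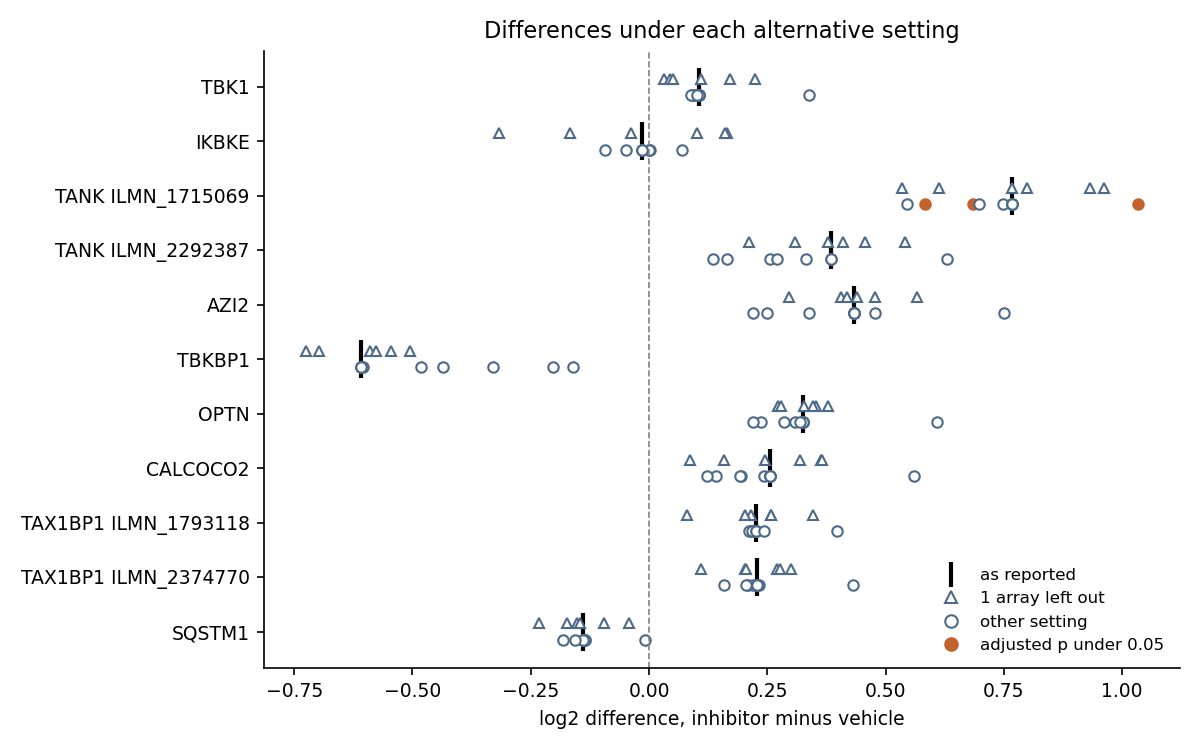
Log2 difference, inhibitor minus vehicle (x axis), of each tested member probe (y axis) as reported (bar), with 1 array left out (triangles) and under the other settings (circles). Filled circles mark an adjusted p under 0.05, which occur only for TANK probe ILMN_1715069, and IKBKE is the only gene with points on both sides of 0.

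Over the 6 arrays, the level of TBK1 followed that of TANK probe ILMN_1715069 most closely among the members (Pearson r = 0.78) and ran against SQSTM1 (r = -0.64) and IKBKE (r = -0.54). The non-member probes most like TBK1 over the 6 arrays were those of RRP1B (r = 0.99), TUBE1 (0.99), CLIP1 (0.99), NCBP2 (0.99) and ZNF181 (0.98). Of all probes tested, 135, or 0.676%, reached an r of 0.9 with TBK1. These are descriptions over 6 arrays that share brightness and group, and the highest of many values.

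Other genes around TBK1 were also mostly not called, which held for all probes tested too. Of all probes tested, 4.13% passed and 22.8% had an unadjusted p under 0.05 by limma. Of 12 tested probes of upstream sensors and adaptors, 1 was higher, 0 lower and 11 not called, and 2 had an unadjusted p under 0.05, with a median log2 difference of -0.02 against 0.01 for all probes. The RNA helicase gene DDX3X, whose product binds TBK1, rose on probe ILMN_1728870 (0.92 ± 0.21, limma adjusted p = 0.0411). Its much brighter probe ILMN_1794392 gave 0.14 (adjusted p = 0.630), so the DDX3X probes disagreed. The rise of the dim probe passed in 4 of 14 alternative settings and in none of the fits with 1 array left out (adjusted p 0.0552 to 0.160). STING1, the adaptor of cytosolic DNA sensing, had -0.86 ± 0.23 (adjusted p = 0.0650). It was chosen for mention once its value was known, and it was past the threshold in 4 of 16 alternative settings.

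Of 24 tested probes of enzymes that modify TBK1 or its adaptors, 1 was higher, 0 lower and 23 not called, and 4 had an unadjusted p under 0.05, with a median of 0.11. The one called was GSK3B, a kinase reported to bind TBK1, with signal intensities of 294.6, 316.3 and 476 with vehicle and 647.9, 651.2 and 841.9 with the inhibitor. All inhibitor values of GSK3B exceeded all vehicle values, and the log2 difference was 0.88 ± 0.17 (adjusted p = 0.0302). GSK3B passed in 10 of 16 alternative settings, and with 1 array left out only without vehicle replicate 2 (adjusted p 0.0449, against 0.0521 to 0.126 when another array was left out). With the replicate block its adjusted p was 0.0676. None of the 20 probes of substrates and transcription factors downstream of TBK1 passed (median 0.13), and 7 had an unadjusted p under 0.05, a cut that 22.8% of all probes tested met. The smallest p-values there were those of PELI1, a ubiquitin ligase that TBK1 phosphorylates (0.72, adjusted p = 0.0659), and REL, an NF-kB subunit (0.60, adjusted p = 0.0776). The other REL probe, ILMN_2124064, gave 0.66 (limma adjusted p = 0.106).

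Autophagy genes outside the members gave a similar picture. None of the 21 probes of other selective autophagy receptors passed (median 0.24, 8 with an unadjusted p under 0.05), nor did any of the 14 probes of ATG8 proteins and the initiation complex (median 0.26, 2 with an unadjusted p under 0.05, against 22.8% of all probes at that cut). The smallest p-values belonged to PHB2, a mitophagy receptor of the inner mitochondrial membrane (-0.67, adjusted p = 0.0537), and RETREG1, a receptor for the endoplasmic reticulum (0.58, adjusted p = 0.0707 on ILMN_2387952). The other RETREG1 probes gave 0.24 and 0.17 (adjusted p = 0.548 and 0.689). ULK1, the kinase that starts autophagosome formation, had 0.60 and 0.48 on its probes (adjusted p = 0.0786 and 0.0968), and ATG101, a subunit of the same complex, had 0.37 (adjusted p = 0.240). PHB2 passed in 7 of 16 alternative settings, PELI1 in 5 and the ULK1 probes in 4 of 15 and 3 of 16. The lists thus held 0 or 1 called probe each, against 4.13% of all probes tested. With 12 to 24 tested probes a list, such counts lie near that share and are no result about these genes.

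**Figure D5:**
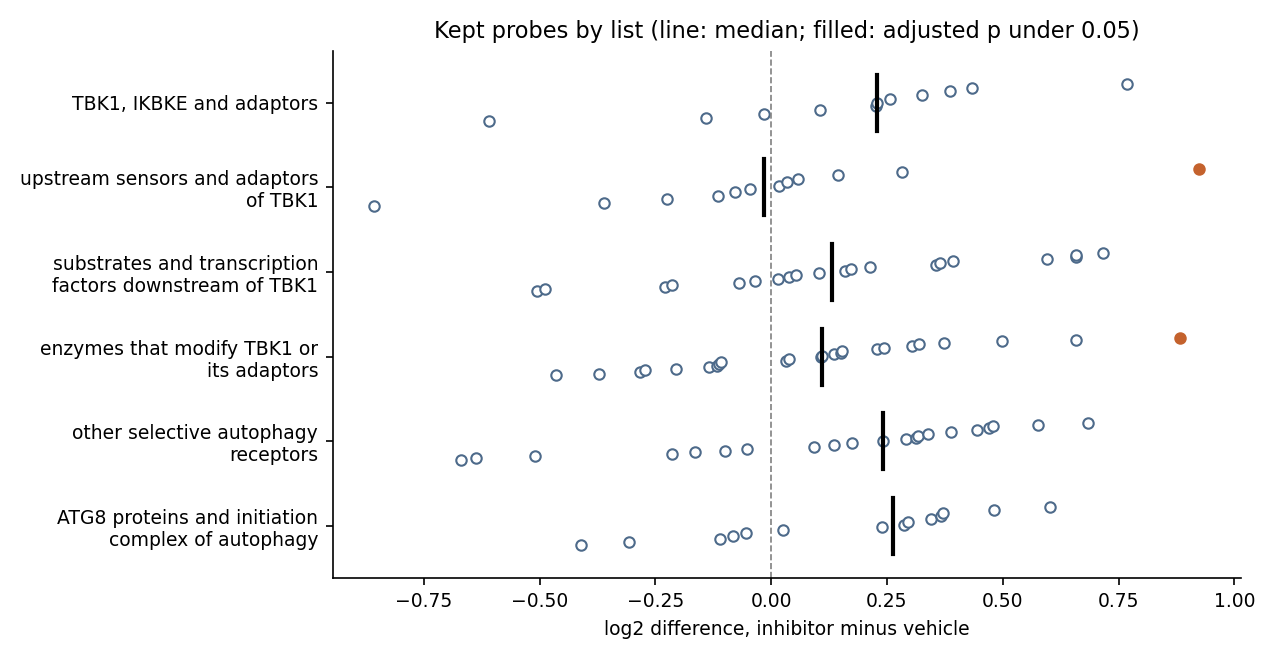
Log2 difference, inhibitor minus vehicle (x axis), of the tested probes of the members and of 5 lists of related genes (y axis). Each point is 1 probe, the black line the median of the list, and a filled point an adjusted p under 0.05, reached by 1 probe of DDX3X and 1 of GSK3B. Vertical offsets within a list carry no value.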

How the data were processed

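The sample titles gave the group and number of each replicate. They do not say whether replicates were separate cultures, so p-values reflect the spread among these arrays alone, part of which may be technical. The deposited table gives a signal intensity on a linear scale, not normalized between arrays, and a detection p-value per probe, per the file headers. The deposited processed values are log2-like, with their log base not stated. The submitters' processing notes name lumi, without a version. Genome build and slide are not stated.

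Signal intensities were corrected with limma 3.58.1 in R 4.3.3 (normexp, negative controls inferred from detection p-values, offset 16), quantile normalized and log2 transformed. Background correction widens differences of dim probes, and quantile normalization removes a shift shared by most genes. The 19958 probes detected (p under 0.05) on 3 or more of 6 arrays were tested with lmFit and eBayes, and p-values were adjusted over all of them by the Benjamini-Hochberg method. A probe detected on the arrays of only 1 group was kept too. Symbols came from the platform annotation (30112 probes with 1 symbol, 8 with several, 17201 with none), and those of list genes were updated through the gene ID with RefSeq. All 9 members matched promoter windows.

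Members, lists and alternatives were chosen with earlier results of these data known. Named genes were all member probes, per list the genes past the threshold or, where none passed, the 2 with the smallest p (STING1 and marker genes given by detection lie outside this rule), and the 5 probes most like TBK1 by Pearson r. The fit was tested on simulated data with 200 changed probes, with 3 false calls among 127. The number of arrays limits the precision. List genes named in the text were recomputed under the same alternatives, chosen after seeing the data. Alternatives covered background correction, normalization, filter, processed values, 1 probe a gene, replicate block, array weights and leaving out each array.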

Additional observations from a re-analysis of the deposited data

How the results depend on the processing

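Over 16 alternative settings, 10 of the 11 member probes kept the direction of their difference in every setting in which they were tested, while the size of each of these but TANK probe ILMN_1715069 moved by over 1.5 times in at least 1 setting; median centring gave 0.34 for TBK1 and 0.40 and 0.43 for TAX1BP1, and an offset of 50 gave -0.33 for TBKBP1 and 0.26 for TANK probe ILMN_2292387. IKBKE turned from -0.01 to 0.0017 with an offset of 50 and 0.070 with median centring, and ran from -0.32 to 0.16 with 1 array left out; it never passed. The count of member probes past the threshold was 0 and became 1, TANK probe ILMN_1715069, without background correction, with an offset of 50 and with median centring; it was 0 in every fit with 1 array left out. The cause was not tested. Median centring moved the median difference of all probes from 0.01 to 0.21, and the share of calls that were higher from 62.7% to 94.6%, so differences under it are read relative to that shift. The count over all probes, 825 as reported, was 1704 without background correction, 1573 with an offset of 50, 484 without a filter, 1240 with a detection p under 0.01 on all 6 arrays, 1570 with the deposited processed values and 1309 with array weights. With 1 array left out it ran from 4 to 607: 294 without vehicle replicate 1, 377 without vehicle replicate 3, 41 without inhibitor replicate 1 and 4 without inhibitor replicate 2 or 3. The percentages given as background hold for all 6 arrays. With the replicate block it was 68, and 0 member probes passed. Deviations of same-numbered samples from their group means of normalized level correlated at -0.14, 0.02 and 0.12. Of the 3 vehicle samples, 2 correlated better with another number, so the numbers were not taken to pair the samples. Normalization removes array brightness, which this check therefore cannot see. Median signals rose with the number in both groups (98.5, 101.7 and 138.1 with vehicle, 110.7, 117.3 and 130.7 with the inhibitor). Whether same-numbered samples shared a step was not tested. Slide as a block was not run, since no slide is given. IKBKE and TBKBP1 lay near background, where signal limits what the arrays can resolve.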
